A study of Mus musculus with 30 samples.

Results

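Flk1+ mesoderm turns into hemogenic endothelium, an endothelial cell type from which the first blood cells emerge, and the wild-type (WT) course of that step is described here at the level of RNA. The members were the 2 Flk1+ and the 2 HE1 samples of WT cells, 4 of the 30 RNA-seq samples of the series, and the comparison was HE1 minus Flk1+ over all 14525 genes tested. The WT cells were the mouse embryonic stem cell (ESC) line E14, a single line that carries neither mutation of the study and was differentiated in culture. Flk1+ cells were taken from embryoid bodies grown for 3 to 3.75 days, the time depending on the cell line, with a biotinylated Flk1 antibody on magnetic columns. They were then put into blast culture, a medium in which they form endothelium and blood, and on day 2 the pooled floating and adherent cells were sorted by flow cytometry for KIT, which all sorted cells carried. HE1 was the fraction with Tie2 and without CD41, HE2 had both, and progenitors had CD41 without Tie2. The mutant lines set beside WT were both derived from E14: Sp1_deltaDBD, which makes a truncated Sp1 without its DNA-binding domain, and Sp3KO, which lacks Sp3. Each of the 15 groups (5 populations in 3 genotypes) had 2 samples, described as biological replicates, and p-values measure the spread between these samples.

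In the embryo, mesoderm leaves the primitive streak under T-box factors such as T and Eomes and under Mesp1, and part of it takes up the VEGF receptor Kdr (Flk1). ETS factors led by Etv2, together with Tal1 and Gata2, then open the endothelial programme of adhesion molecules and receptors. In hemogenic endothelium, Runx1 with Gfi1 and Gfi1b subsequently closes that programme as blood cells form.

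Flk1+ cells and HE1 differed in more than cell type: the culture medium, the days in culture and the isolation (magnetic column or flow cytometry) changed with the population, and their part in any difference cannot be told apart. In these bulk samples, a gene active in fewer cells and one with less RNA per cell cannot be told apart either. Values are FPKM, fragments scaled to transcript length and library size, which the authors had quantile normalised so that all samples shared 1 distribution. Depth is therefore unknown and a level is relative to the other genes of its sample. Differences are on the scale of log2(FPKM + 0.1), which understates the change of low genes, and are given ± SE from limma. A gene was called at a Benjamini-Hochberg adjusted p below 0.05. Exact permutation of 2 against 2 samples cannot go below 0.333, so all tests rest on a spread shared across the 30 samples. For each gene below, the values of replicates 1 and 2 of Flk1+ cells come before replicates 1 and 2 of HE1.

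In the main fit, the step moved more than 1 gene in 2 of those with a test. The count was lower in some alternatives, such as 7170 with the 10 WT samples alone. Of 14525 genes, 7696 (53%) were called, 3416 higher (23.5%) and 4280 lower (29.5%) in HE1, and 8353 had an unadjusted p under 0.05. The calls included 2242 genes over 2-fold higher (15.4%) and 2355 over 2-fold lower (16.2%), and 539 and 314 genes past 8-fold. Both HE1 samples stood above both Flk1+ samples for 5170 genes and below them for 6268. The median difference over all genes was -0.08, and where every sample was first centred on its expressed genes, which raised the differences by 0.112, the calls split into 3873 higher and 3676 lower, 51.3% higher instead of 44.4%. At the bottom of the scale, 543 tested genes were at the lowest value of the sample in both Flk1+ samples, of which 134 were called higher, and 570 in both HE1 samples, of which 141 were called lower.

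Replicates were closer in Flk1+ cells than in HE1. Pearson's r over the genes tested, on the log2 scale, was 0.989 between the Flk1+ samples, 0.974 between the HE1 samples and 0.848 to 0.854 across the populations, as a description over genes, which are not independent. Of genes with a mean above 3 FPKM, 46 of 9472 differed more than 2-fold between the Flk1+ replicates and 335 of 9525 between the HE1 replicates. The marker genes show where the HE1 samples parted. The summed level of 6 smooth muscle markers was 33.8 and 30.4 FPKM in Flk1+ cells and 1811 and 373 FPKM in HE1, that of 5 mesenchyme markers 37.6 and 40.4 FPKM in Flk1+ cells and 196 and 22.7 FPKM in HE1 and that of 8 epithelium markers 447 and 478 FPKM in Flk1+ cells and 881 and 94.7 FPKM in HE1, so HE1 replicate 1 was the higher one in all 3 lists. The same order between replicates 1 and 2 held in HE2, at 485 and 82.6 FPKM for smooth muscle. The 8 endothelium markers, in contrast, summed to 54.6 and 55.8 FPKM in Flk1+ cells and 1164 and 1869 FPKM in HE1, higher in HE1 replicate 2.

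**Figure D1:**
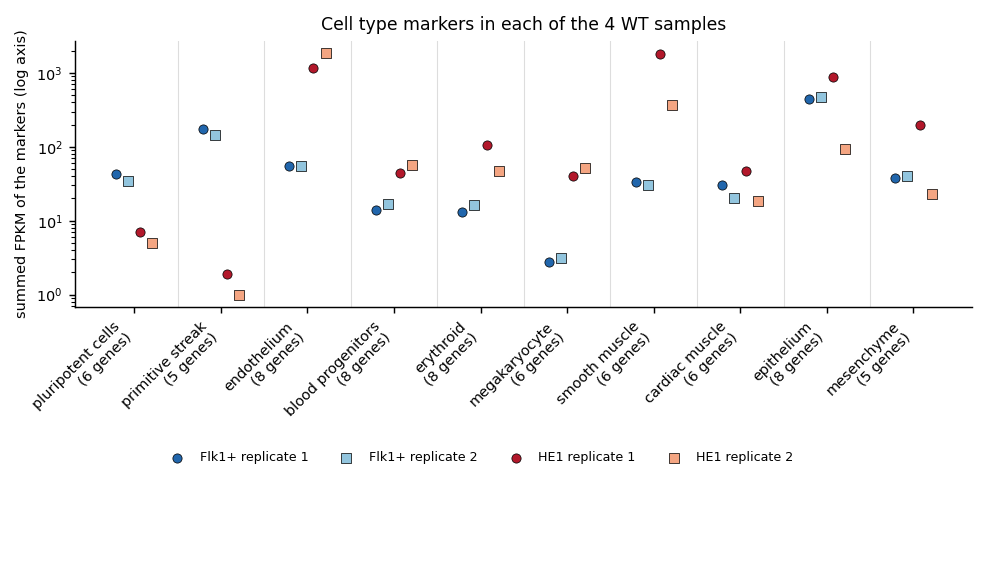
Summed FPKM (log axis) of the markers of 10 cell types in each of the 4 WT samples, circles for replicate 1 and squares for replicate 2, blue for Flk1+ cells and red for HE1. Endothelium markers sat at 54.6 and 55.8 FPKM in Flk1+ cells and at 1164 and 1869 FPKM in HE1, primitive streak markers went the opposite way, and smooth muscle, epithelium and mesenchyme markers were higher in HE1 replicate 1 than in replicate 2.

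In HE1 replicate 1 the smooth muscle sum was above the endothelium sum, and in both Flk1+ samples the epithelium sum was above that of the primitive streak. The epithelium list, however, held Hand1, which is given below with the lateral plate and cardiac factors. Hand1 and the keratin gene Krt8 made up most of its Flk1+ sum, while Epcam was at 7.94 and 6.34 FPKM. This sum is therefore not a measure of epithelium alone. The 5 primitive streak markers summed to 172 and 144 FPKM in Flk1+ cells and 1.89 and 0.999 FPKM in HE1 and the 6 pluripotent cell markers to 42.5 and 34.6 FPKM in Flk1+ cells and 7.05 and 5.04 FPKM in HE1. All 8 endothelium markers were called higher in HE1. The 8 blood progenitor markers summed to 13.8 and 17 FPKM in Flk1+ cells and 43.7 and 56 FPKM in HE1, with 2 called higher, 2 called lower and the pan-leukocyte gene Ptprc at the lowest value in all 4 samples. Most of that HE1 sum was the CD41 gene Itga2b, at 34.8 and 49.2 FPKM, so the higher sum does not describe the list. Erythroid markers summed to 13.3 and 16.3 FPKM in Flk1+ cells and 106 and 47 FPKM in HE1 and megakaryocyte markers to 2.77 and 3.11 FPKM in Flk1+ cells and 40.2 and 52 FPKM in HE1, the platelet factor gene Pf4 being at the lowest value in all 4. Itga2b was a megakaryocyte marker too and made up most of that HE1 sum, so the blood progenitor and megakaryocyte sums largely repeat 1 gene. Cardiac muscle markers summed to 30.3 and 20.6 FPKM in Flk1+ cells and 46.8 and 18.7 FPKM in HE1.

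The genes behind the sort gates were examined first. Kdr, the gene for Flk1, was at 192 and 209 FPKM in Flk1+ cells and 209 and 303 FPKM in HE1 (log2 difference 0.33 ± 0.26, adjusted p = 0.31), so the gene that selected the mesoderm was not called and both populations held it at a high level. Tek, which codes for Tie2, the angiopoietin receptor of the HE1 gate, rose from 1.22 and 1.29 FPKM to 135 and 205 FPKM (log2 difference 6.94 ± 0.30, adjusted p = 2.6e-12). Kit, the stem cell factor receptor of the same gate, rose from 4.91 and 5.84 FPKM to 16.9 and 26.8 FPKM (log2 difference 1.97 ± 0.34, adjusted p = 6.7e-05). HE1 was sorted as CD41-, yet the CD41 gene Itga2b rose from 2.25 and 2.46 FPKM to 34.8 and 49.2 FPKM (log2 difference 4.08 ± 0.47, adjusted p = 7.6e-07). Its RNA stood at 84.6 and 147 FPKM in HE2 and 85.9 and 136 FPKM in progenitors, the populations sorted as CD41+. Sp1, whose DNA-binding domain is missing from 1 of the mutant lines, fell from 41.2 and 46 FPKM to 25.6 and 24.9 FPKM (log2 difference -0.78 ± 0.17, adjusted p = 6.3e-04). Sp3, missing from the other, fell from 40.8 and 38.7 FPKM to 25.9 and 26.3 FPKM (log2 difference -0.60 ± 0.19, adjusted p = 0.010). Sp3 did not pass without Flk1+ replicate 1 (-0.57, adjusted p = 0.059).

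**Figure D2:**
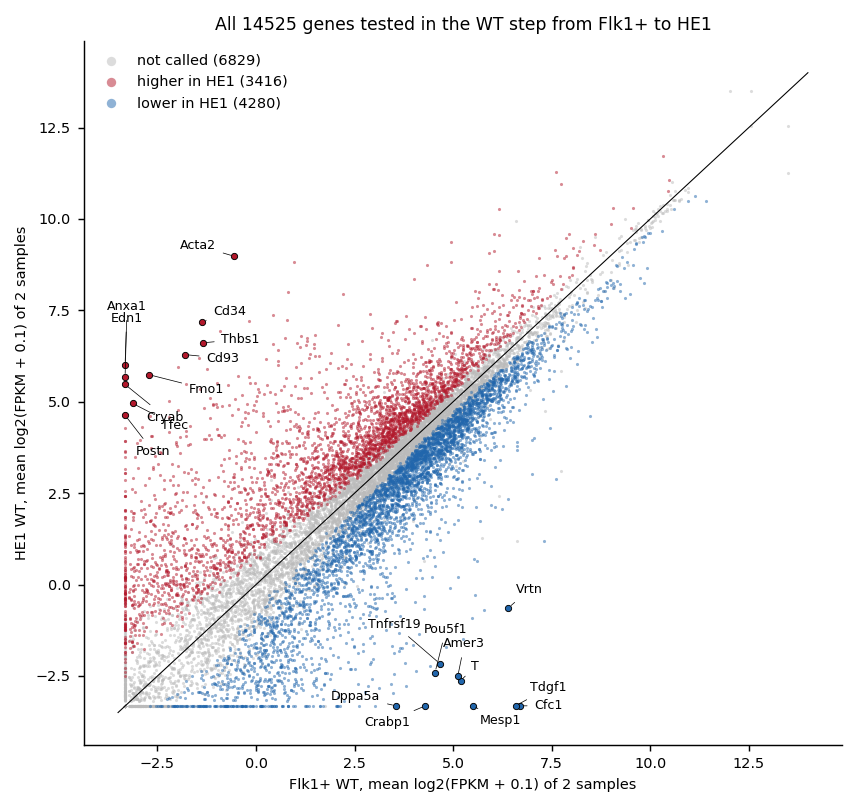
Mean log2(FPKM + 0.1) of the 2 HE1 samples against that of the 2 Flk1+ samples for the 14525 genes tested, red where called higher in HE1 (3416), blue where called lower (4280) and grey where not called (6829). The 10 largest rises and 10 largest falls are named. The row of points along the left edge and along the bottom are genes at the lowest value in both samples of 1 population.

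The 10 largest rises were Acta2, Edn1, Anxa1, Cryab, Cd34, Fmo1, Cd93, Tfec, Postn and Thbs1, in that order, and Edn1, Anxa1, Cryab and Postn were listed at 0 in both Flk1+ samples, so that their place depends on the 0.1 FPKM added. Acta2, the smooth muscle actin gene (chr19:34241090-34255590, GRCm38), rose from 0.48 and 0.698 FPKM to 1138 and 224 FPKM (log2 difference 9.54 ± 1.10, adjusted p = 7.9e-07), a large rise in both HE1 samples although they differed about as much as the marker sums did. Cd34 (chr1:194938819-194961279), a sialomucin of endothelium and blood stem cells, rose from 0.319 and 0.261 FPKM to 139 and 153 FPKM (log2 difference 8.55 ± 0.46, adjusted p = 5.5e-11). Cd93 (chr2:148436640-148443563), an endothelial C-type lectin, rose from 0.163 and 0.209 FPKM to 67.2 and 90.9 FPKM (log2 difference 8.1 ± 0.36, adjusted p = 3.3e-12). Both replicates of HE1 were close for these surface molecules. Tfec, a factor of the Mitf family, rose from 0 and 0.0301 FPKM to 26.1 and 36.6 FPKM (log2 difference 8.09 ± 0.30, adjusted p = 3.3e-13). Fmo1, a flavin monooxygenase, rose from 0.0633 and 0.0425 FPKM to 39.1 and 72.9 FPKM (log2 difference 8.45 ± 0.32, adjusted p = 4.8e-13). Thbs1, the matrix protein thrombospondin 1, rose from 0.364 and 0.238 FPKM to 125 and 76.5 FPKM (log2 difference 7.95 ± 0.40, adjusted p = 1.9e-11). Of the 4 genes listed at 0 in Flk1+ cells, Edn1, the vasoconstrictor endothelin 1, was at 52.7 and 78.1 FPKM in HE1, and Cryab, a small heat shock protein, at 85 and 23.1 FPKM. Anxa1, the anti-inflammatory annexin, was at 106 and 24.6 FPKM and Postn, a matrix protein of mesenchyme, at 89.8 and 6.74 FPKM, both much higher in HE1 replicate 1.

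The 10 largest falls held genes of the primitive streak and of pluripotent cells. Of these, Cfc1, Tdgf1, Mesp1, Crabp1 and Dppa5a were at the lowest value in both HE1 samples. Cfc1 and Tdgf1 code for the Nodal co-receptors Cryptic and Cripto, and were at 99.4 and 108 FPKM and at 111 and 82.7 FPKM in the Flk1+ samples. Mesp1 (chr7:79792241-79793788), the factor of the earliest cardiovascular mesoderm, was at 51.7 and 39.1 FPKM, Crabp1, a retinoic acid binding protein, at 21.6 and 17.7 FPKM, and Dppa5a, a gene of pluripotent cells, at 11.8 and 11.5 FPKM. The gene T (chr17:8434423-8442496), for Brachyury, fell from 41.9 and 31.6 FPKM to 0.047 and 0.078 FPKM (log2 difference -7.82 ± 0.58, adjusted p = 2.7e-09). Pou5f1, the pluripotency factor Oct4, fell from 27.4 and 19.6 FPKM to 0.13 and 0.0549 FPKM (log2 difference -6.95 ± 0.73, adjusted p = 2.4e-07). Amer3, a member of the Amer family of Wnt regulators, fell from 31.2 and 38.3 FPKM to 0.0744 and 0.0766 FPKM (log2 difference -7.63 ± 0.26, adjusted p = 2.3e-13). Vrtn, a gene of vertebral number in pigs, fell from 82.3 and 86.7 FPKM to 0.635 and 0.463 FPKM (log2 difference -7.04 ± 0.42, adjusted p = 2.2e-10), the one of these that kept a level above 0.5 FPKM in an HE1 sample. Tnfrsf19, a receptor of the TNF family, fell from 23.5 and 27.1 FPKM to 0.205 and 0.0631 FPKM (log2 difference -6.83 ± 0.47, adjusted p = 1.2e-09).

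Since the study is about Sp1 and Sp3, which bind GC boxes, the 250 bases before the RefSeq start of 3 of these genes are shown: Tek, for a gate gene that rose, Klf2, for the largest rise of the Sp and Klf family, and T, for a streak gene that fell. All lie on the + strand of GRCm38.p6. Capitals mark the GC box (GGGCGG, or CCGCCC on the opposite strand) and the CCAAT box, which share letters at 1 place before T.
Tek, chr4:94739039-94739288: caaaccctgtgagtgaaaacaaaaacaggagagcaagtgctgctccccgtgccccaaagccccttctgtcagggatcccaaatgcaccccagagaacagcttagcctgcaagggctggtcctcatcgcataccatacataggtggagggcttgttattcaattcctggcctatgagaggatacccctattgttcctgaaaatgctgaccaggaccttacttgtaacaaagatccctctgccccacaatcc
Klf2, chr8:72318812-72319061: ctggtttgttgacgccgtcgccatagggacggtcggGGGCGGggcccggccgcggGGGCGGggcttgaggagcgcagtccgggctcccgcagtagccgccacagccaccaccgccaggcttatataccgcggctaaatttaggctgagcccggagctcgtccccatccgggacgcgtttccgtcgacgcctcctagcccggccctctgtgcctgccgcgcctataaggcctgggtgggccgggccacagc
T, chr17:8434173-8434422: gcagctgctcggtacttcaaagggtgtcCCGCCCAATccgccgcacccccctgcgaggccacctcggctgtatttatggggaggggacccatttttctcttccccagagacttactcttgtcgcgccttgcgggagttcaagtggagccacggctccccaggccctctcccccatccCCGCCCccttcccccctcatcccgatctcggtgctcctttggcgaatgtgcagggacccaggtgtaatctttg
Before Klf2 the GC box stood at 2 places and before T, on the opposite strand, also at 2 places, while the Tek window held none of the motifs searched. Over 13965 RefSeq promoters of 11029 tested genes, a GC box on either strand was in 57.4% of the promoters of genes called higher, in 57.3% of those called lower and in 56.0% of all, against 32.7% of all promoters in the reference. The CCAAT box was in 32.7% of promoters of genes called higher and 38.1% of those called lower (35.3% over all tested). The GATA motif AGATAA was in 6.91% and 5.37%, and the ETS motif CCGGAAGT in 4.17% and 6.09%. Among the gene lists, the CCAAT box was in 80.6% of the 31 promoters of mitosis genes and in 56.8% of the 44 of replication genes. The GC box was in 37.9% of the 29 promoters of endothelial identity genes. These shares describe the letters of the windows alone.

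**Figure D3:**
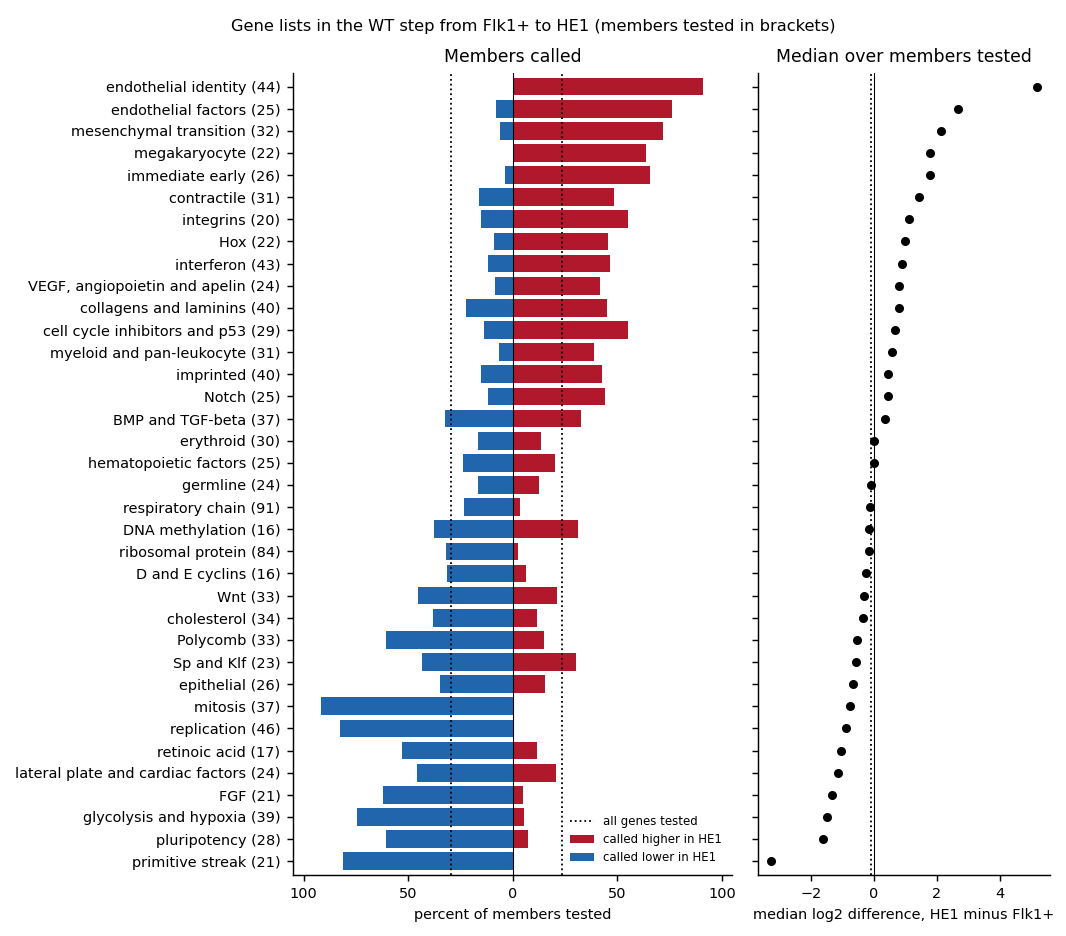
Left, the percent of the members tested of each gene list called higher (red) or lower (blue) in HE1, with the number tested in brackets and dotted lines for all genes tested (23.5% and 29.5%). Right, the median log2 difference of each list. Endothelial identity genes had the highest median (5.19) and primitive streak genes the lowest (-3.28).

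Endothelial identity genes, the receptors, junction and surface molecules that define endothelium, went up nearly as a block. Of 44 tested of 46, 40 were called higher and 0 lower (1 without HE1 replicate 2), with a median of 5.19 over all 44 against -0.08 over all genes. Cdh5 (chr8:104101625-104144511), the VE-cadherin of endothelial junctions, rose from 1.62 and 2.09 FPKM to 402 and 501 FPKM (log2 difference 7.86 ± 0.30, adjusted p = 4.8e-13). Pecam1, the adhesion molecule CD31, rose from 1.39 and 1.99 FPKM to 202 and 331 FPKM (log2 difference 7.2 ± 0.28, adjusted p = 4.8e-13). Icam2, another adhesion molecule of endothelium, rose from 0.259 and 0.28 FPKM to 57.4 and 94.2 FPKM (log2 difference 7.64 ± 0.27, adjusted p = 2.3e-13). These 3 junction and adhesion genes were at a few FPKM or less in both Flk1+ samples, and the HE1 samples lay far above. Emcn, the endothelial sialomucin endomucin, was listed at 0 in both Flk1+ samples and was at 9.89 and 12.7 FPKM in HE1. Esam, an adhesion molecule of tight junctions, rose from 2.49 and 1.55 FPKM to 76.3 and 125 FPKM (log2 difference 5.56 ± 0.40, adjusted p = 1.9e-09). Egfl7, a secreted factor that hosts the microRNA miR-126, was already high in mesoderm and rose from 47 and 47.7 FPKM to 177 and 389.6 FPKM (log2 difference 2.47 ± 0.38, adjusted p = 2.5e-05). Levels later were lower for the junction gene Cdh5, which was at 221 and 231 FPKM in HE2 and 28.2 and 24.3 FPKM in progenitors. Cd34 was at 248 and 353 FPKM in HE2 and 103 and 262 FPKM in progenitors, above its HE1 level in HE2.

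Endothelial transcription factors rose in 19 of 25 and fell in 2, with a median of 2.67. The steepest were Tfec, given above, then Klf2, a factor induced by shear stress, which rose from 0.647 and 0.233 FPKM to 39.5 and 52.4 FPKM (log2 difference 6.51 ± 0.49, adjusted p = 3.1e-09). Sox18, an SRY-box factor of endothelium, rose from 0.474 and 0.541 FPKM to 45.7 and 42.7 FPKM (log2 difference 6.19 ± 0.48, adjusted p = 5.3e-09). Mef2c, shared by the endothelial and cardiac programmes, rose from 0.281 and 0.749 FPKM to 7.41 and 6.74 FPKM (log2 difference 3.66 ± 0.37, adjusted p = 1.4e-07). The 2 that fell were Etv2 and Hey1. Etv2, the ETS factor at the head of the programme, fell from 31.4 and 17 FPKM to 5.43 and 7.8 FPKM (log2 difference -1.81 ± 0.46, adjusted p = 0.0025). The populations did not overlap, which the rule for naming list genes required. Etv2 did not pass without Flk1+ replicate 1 (-1.37, adjusted p = 0.0502). Hey1, a Notch target, fell from 21 and 24.5 FPKM to 6.66 and 10.4 FPKM (log2 difference -1.43 ± 0.36, adjusted p = 0.0022).

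Blood transcription factors were called about as often as all genes. Of 25 tested of 26, 5 were called higher (20%) and 6 lower (24%), against 23.5% and 29.5% of all genes. Their median was -0.01 and lay between -0.30 and 0.01 when 1 of the 4 samples was left out. Those that rose were Hoxb4, Lyl1, Gfi1 and Cbfa2t3 among others: Lyl1, a partner of Tal1-type complexes, rose from 1.91 and 1.54 FPKM to 9.31 and 14.9 FPKM (log2 difference 2.71 ± 0.33, adjusted p = 1.3e-06). Gfi1, the repressor that shuts endothelial genes, rose from 0.216 and 0.443 FPKM to 1.4 and 2.49 FPKM (log2 difference 2.25 ± 0.35, adjusted p = 2.4e-05). Gata1, the erythroid GATA factor, fell from 2.46 and 3.1 FPKM to 0.187 and 0 FPKM (log2 difference -4.08 ± 0.83, adjusted p = 3.9e-04). Ikzf1, the lymphoid and stem cell factor Ikaros, fell from 3.23 and 3.78 FPKM to 0.414 and 0.313 FPKM (log2 difference -2.96 ± 0.44, adjusted p = 1.6e-05). Myb, needed for definitive blood, fell from 2.9 and 3.92 FPKM to 1.32 and 0.852 FPKM (log2 difference -1.58 ± 0.41, adjusted p = 0.0031). Runx1 itself was at 5.46 and 7.53 FPKM in Flk1+ cells and 4.66 and 1.33 FPKM in HE1 (log2 difference -1.32 ± 0.70, adjusted p = 0.12), where the HE1 samples lay apart and both were below the Flk1+ samples. Runx1 passed without HE1 replicate 1 (-2.19, adjusted p = 0.034). Spi1, the myeloid factor PU.1, was at 0.867 and 0.246 FPKM in Flk1+ cells and 0.289 and 0.28 FPKM in HE1 (log2 difference -0.59 ± 0.51, adjusted p = 0.36). Gata1, Ikzf1 and Myb had higher values later. Gata1 was at 6.3 and 2.01 FPKM in HE2 and 69.9 and 45.9 FPKM in progenitors. Ikzf1 was at 14.2 and 12.9 FPKM in HE2 and 41.6 and 35.6 FPKM in progenitors. Myb was at 31.8 and 38.2 FPKM in HE2 and 64.9 and 71.5 FPKM in progenitors, so HE1 was the low point of each among the 4 populations from Flk1+ on.

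**Figure D4:**
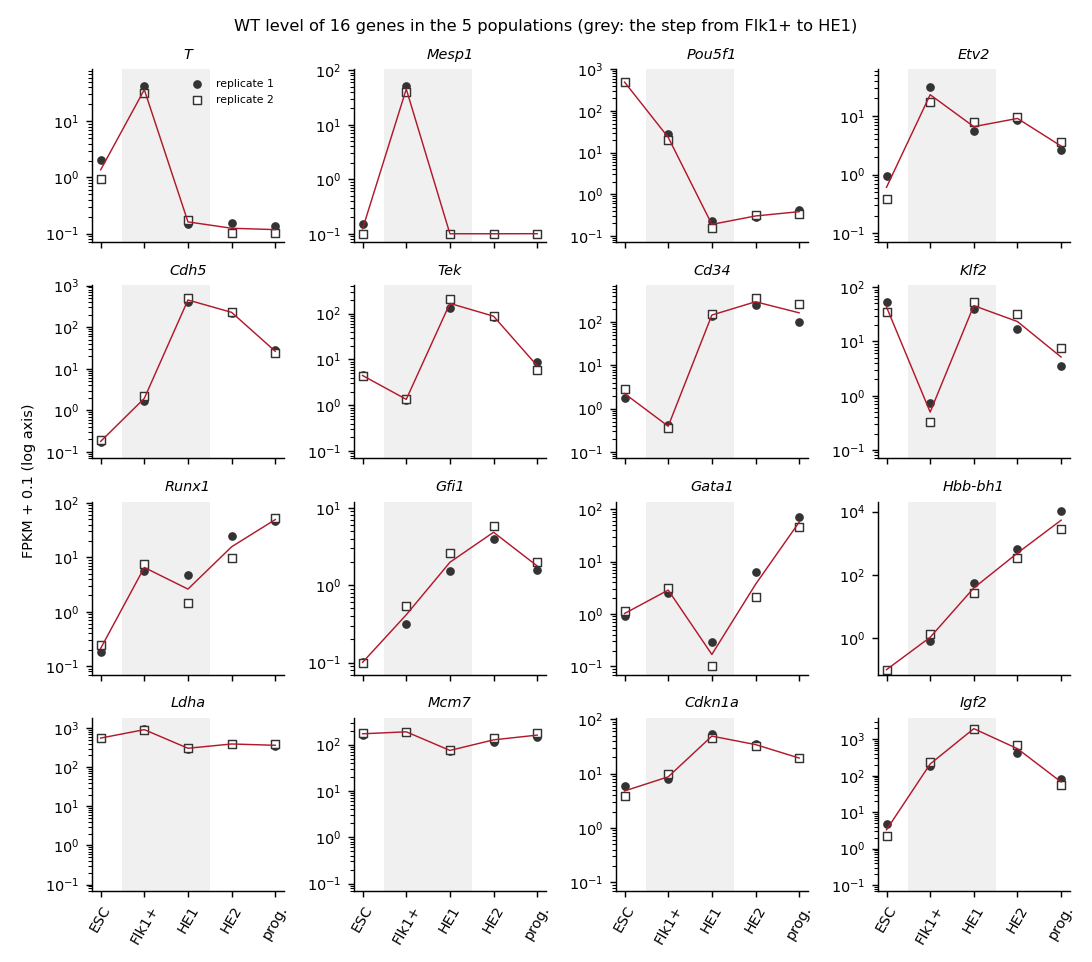
FPKM + 0.1 (log axis) of 16 genes in the 5 WT populations, filled circles for replicate 1, open squares for replicate 2, the line through the mean of the log2 values and grey for the step described. T, Mesp1 and Pou5f1 drop at the step, Cdh5, Tek, Cd34 and Klf2 climb from under 3 FPKM, Gata1 is lowest in HE1, and Hbb-bh1 is highest in progenitors.

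Genes of differentiated blood lineages were mixed. Of 30 erythroid genes, 4 were called higher (13.3%) and 5 lower (16.7%), under the shares of all genes (23.5% and 29.5%). Their median was 0.01, between -0.05 and 0.09 without 1 of the 4 samples, and the genes that rose included the embryonic globins. Hbb-bh1 rose from 0.718 and 1.26 FPKM to 55.1 and 26.5 FPKM (log2 difference 5.18 ± 0.64, adjusted p = 1.7e-06), while Hba-x and Hbb-y were listed at 0 in both Flk1+ samples and were at 36.7 and 6.18 FPKM and at 8.64 and 7.75 FPKM in HE1. Tfrc, the transferrin receptor that red cells need for iron, fell from 102 and 94.7 FPKM to 11.8 and 15.9 FPKM (log2 difference -2.84 ± 0.24, adjusted p = 1.4e-08). Car2, a carbonic anhydrase, fell from 68.9 and 71.3 FPKM to 29 and 23.7 FPKM (log2 difference -1.41 ± 0.13, adjusted p = 4.9e-08). Globin RNA then was at 677 and 349 FPKM in HE2 and 10322 and 2745 FPKM in progenitors for Hbb-bh1, so HE1 held a small part of the later level. Of 22 megakaryocyte genes tested of 23, 14 were called higher and 0 lower (median 1.78). That list holds genes also used by endothelium. Itgb3, the beta chain that pairs with CD41, rose from 0.124 and 0.274 FPKM to 4.81 and 1.86 FPKM (log2 difference 3.42 ± 0.40, adjusted p = 1.0e-06) but was at 111 and 127 FPKM in HE2 and 205 and 233 FPKM in progenitors. Of 31 myeloid and pan-leukocyte genes tested of 32, 12 were called higher and 2 lower (median 0.56), the 2 lost without any 1 of the 4 samples. Arhgdib, a gene of blood and endothelium, rose from 2.39 and 2.29 FPKM to 103 and 110.3 FPKM (log2 difference 5.45 ± 0.23, adjusted p = 1.8e-12). Mpo, the granule peroxidase, was at 0.242 and 0.358 FPKM in Flk1+ cells and 0.477 and 0.949 FPKM in HE1 (log2 difference 0.98 ± 0.47, adjusted p = 0.088). Mpo passed without HE1 replicate 1 (1.41, adjusted p = 0.049).

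Primitive streak genes fell in most cases. Of 21 primitive streak genes tested of 24, 17 were called lower and 0 higher (median -3.28). Eomes, a T-box factor of the streak, fell from 46.6 and 41.9 FPKM to 0.494 and 0.374 FPKM (log2 difference -6.38 ± 0.45, adjusted p = 1.6e-09). Evx1, a homeobox factor of posterior streak, fell from 29.9 and 30.6 FPKM to 1.27 and 0.547 FPKM (log2 difference -5.01 ± 0.56, adjusted p = 5.0e-07). Among 28 pluripotency genes, 17 fell and 2 rose (median -1.62). Nanog fell from 11.2 and 10.7 FPKM to 0.0637 and 0 FPKM (log2 difference -6.43 ± 0.46, adjusted p = 1.7e-09). The 2 that rose were Klf2 and Klf4, which endothelium also uses: Klf4 rose from 5.38 and 3.65 FPKM to 10.04 and 15.2 FPKM (log2 difference 1.46 ± 0.32, adjusted p = 7.4e-04). Sox2 was low in both populations, at 0.311 and 0.065 FPKM in Flk1+ cells and 0.121 and 0.0405 FPKM in HE1 (log2 difference -0.56 ± 0.61, adjusted p = 0.47). Of 24 lateral plate and cardiac factors tested of 27, 11 fell and 5 rose (median -1.13). Pdgfra, the PDGF receptor of paraxial and cardiac mesoderm, fell from 22.8 and 21.2 FPKM to 1.02 and 1.1 FPKM (log2 difference -4.25 ± 0.42, adjusted p = 9.6e-08). Isl1, of the second heart field, fell from 8.33 and 8.04 FPKM to 0.87 and 0.517 FPKM (log2 difference -3.42 ± 0.34, adjusted p = 1.4e-07). Hand2 and Meis1 went up instead: Hand2, a heart and lateral plate factor, rose from 13.9 and 15.5 FPKM to 40.2 and 50.2 FPKM (log2 difference 1.6 ± 0.40, adjusted p = 0.0022). Meis1, a partner of Hox proteins, rose from 1.24 and 0.748 FPKM to 8.35 and 8.52 FPKM (log2 difference 3.0 ± 0.30, adjusted p = 1.2e-07). Hand1 was at 153 and 168 FPKM in Flk1+ cells and 49.5 and 14.4 FPKM in HE1 (log2 difference -2.58 ± 1.22, adjusted p = 0.084), which was not called, and its HE1 samples lay far apart.

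In the VEGF, angiopoietin and apelin pathways, 10 of 24 tested of 26 were called higher and 2 lower (median 0.80, and 1.41 without HE1 replicate 2). The shares were 41.7% and 8.33%, beside 23.5% and 29.5% of all genes tested. Among receptors, Tie1, the orphan partner of Tie2, rose from 0.664 and 0.912 FPKM to 104 and 211 FPKM (log2 difference 7.4 ± 0.45, adjusted p = 2.6e-10). Ptprb, the phosphatase that acts on Tie2, rose from 0.841 and 1.05 FPKM to 40.2 and 40.4 FPKM (log2 difference 5.28 ± 0.48, adjusted p = 4.1e-08). Among ligands, Vegfb fell from 18.6 and 19.5 FPKM to 6.48 and 5.87 FPKM (log2 difference -1.61 ± 0.22, adjusted p = 6.5e-06). The axon guidance receptor Robo1 was the other that fell, from 16.8 and 14.4 FPKM to 7.49 and 7.24 FPKM (log2 difference -1.07 ± 0.23, adjusted p = 7.2e-04).

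Notch genes were higher in 11 of 25 tested of 27 and lower in 3 (median 0.44, and 0.25 without HE1 replicate 2), and the receptors parted. The shares were 44% and 12%, beside 23.5% and 29.5% of all genes tested. Notch4, the endothelial receptor, rose from 0.153 and 0.175 FPKM to 10.4 and 13.8 FPKM (log2 difference 5.51 ± 0.39, adjusted p = 1.4e-09). Dll4, the arterial ligand, rose from 0.0234 and 0 FPKM to 5.07 and 3.1 FPKM (log2 difference 5.19 ± 0.38, adjusted p = 2.2e-09). Notch2 fell from 25.1 and 28 FPKM to 13.6 and 10.4 FPKM (log2 difference -1.15 ± 0.23, adjusted p = 3.2e-04). Notch3, the receptor of mural cells, fell from 25.2 and 29.99 FPKM to 16.5 and 13.7 FPKM (log2 difference -0.87 ± 0.20, adjusted p = 0.0010). Notch4 and Dll4 were highest in HE1 among the WT populations: Notch4 was at 2.31 and 3.08 FPKM in HE2 and 0.412 and 0.367 FPKM in progenitors and Dll4 at 1.06 and 0.441 FPKM in HE2 and 0.108 and 0.0771 FPKM in progenitors.

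Of 37 BMP and TGF-beta genes, 12 were called higher and 12 lower (32.4% each, against 23.5% and 29.5% of all genes), the latter 7 without Flk1+ replicate 2. The median was 0.34, and 0.11 without HE1 replicate 1. The type I receptor Acvrl1 (ALK1), which endothelium uses for BMP9, rose from 1.46 and 1.64 FPKM to 36.7 and 51 FPKM (log2 difference 4.72 ± 0.45, adjusted p = 6.6e-08). The type II receptor Tgfbr2 rose from 2.34 and 1.92 FPKM to 29 and 39.8 FPKM (log2 difference 3.94 ± 0.34, adjusted p = 1.9e-08). The ligands Bmp7 and Bmp5 went the other way: Bmp7 fell from 19.9 and 22.9 FPKM to 0.35 and 0 FPKM (log2 difference -6.66 ± 0.58, adjusted p = 2.3e-08). Bmp5 fell from 13.1 and 14.8 FPKM to 0.349 and 0.148 FPKM (log2 difference -5.39 ± 0.37, adjusted p = 1.1e-09). Acvr2b, an activin receptor, fell from 33.4 and 37.3 FPKM to 5.89 and 6.16 FPKM (log2 difference -2.53 ± 0.34, adjusted p = 4.9e-06).

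More FGF and Wnt genes fell than rose. Of 21 FGF genes tested of 23, 13 fell and 1 rose (median -1.34), and the 1 was lost without Flk1+ replicate 1. The ligand Fgf3 fell from 54.4 and 56.1 FPKM to 0.528 and 0.516 FPKM (log2 difference -6.48 ± 0.33, adjusted p = 2.7e-11). The ligand Fgf15 fell from 28.7 and 27.7 FPKM to 0.099 and 0.376 FPKM (log2 difference -6.52 ± 0.63, adjusted p = 8.2e-08). The receptor Fgfr2 fell from 19.5 and 29.2 FPKM to 3.23 and 1.93 FPKM (log2 difference -3.2 ± 0.60, adjusted p = 1.8e-04). Of 33 Wnt genes tested of 38, 15 fell and 7 rose (median -0.31), the 7 being 4 without Flk1+ replicate 2 or without HE1 replicate 1. The Wnt median was -0.80 without HE1 replicate 1 and -0.09 without HE1 replicate 2. The shares of Wnt genes were 45.5% lower and 21.2% higher, beside 29.5% and 23.5% of all genes tested. Axin2, a target of beta-catenin, fell from 24.8 and 25.5 FPKM to 2.34 and 2.15 FPKM (log2 difference -3.43 ± 0.30, adjusted p = 1.9e-08). The receptor Fzd7 fell from 50.7 and 49.2 FPKM to 9.03 and 7.14 FPKM (log2 difference -2.62 ± 0.20, adjusted p = 3.7e-09). The ligand Wnt5b fell from 6.9 and 8.17 FPKM to 0.125 and 0.135 FPKM (log2 difference -5.05 ± 0.77, adjusted p = 2.1e-05). The receptor Fzd8 rose from 0.366 and 0.206 FPKM to 3.11 and 3.9 FPKM (log2 difference 3.25 ± 0.26, adjusted p = 8.5e-09). The ligand Wnt4 rose from 0.406 and 0.802 FPKM to 21.6 and 2.58 FPKM (log2 difference 3.5 ± 1.02, adjusted p = 0.0072). Wnt4 did not pass without Flk1+ replicate 1 (3.08, adjusted p = 0.059) or HE1 replicate 1 (1.99, adjusted p = 0.16). Of 17 genes of retinoic acid signalling tested of 21, 9 fell and 2 rose (median -1.06). Dhrs3, which turns retinal back into retinol, rose from 0 and 0.237 FPKM to 6.04 and 10.5 FPKM (log2 difference 5.46 ± 0.51, adjusted p = 5.5e-08). Rxrg, a retinoid X receptor, fell from 3.81 and 2.59 FPKM to 0.00089 and 0.0276 FPKM (log2 difference -4.84 ± 0.45, adjusted p = 5.2e-08).

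Contractile genes had the widest gap between the HE1 samples of the 37 lists, with a median of 0.99 for replicate 1 minus replicate 2 on the log2 scale. Of 31 contractile genes, 15 were called higher and 5 lower (median 1.45). Without HE1 replicate 1 the count of higher ones was 9, and without HE1 replicate 2 the lower ones were 3. Tagln, the smooth muscle protein SM22, rose from 5.67 and 3.58 FPKM to 517 and 117 FPKM (log2 difference 5.73 ± 1.05, adjusted p = 1.4e-04). Tnnt2, the cardiac troponin T, rose from 0.399 and 0.105 FPKM to 5.83 and 13.6 FPKM (log2 difference 4.82 ± 0.74, adjusted p = 2.2e-05). Tnnt2 was higher in HE1 replicate 2, unlike Tagln. Myh11, the defining myosin of smooth muscle, was at 0.0421 and 0.0676 FPKM in Flk1+ cells and 2.36 and 0.0797 FPKM in HE1 (log2 difference 2.11 ± 0.93, adjusted p = 0.064). Myh11 passed without HE1 replicate 2 (3.99, adjusted p = 0.0012). Des, the intermediate filament of muscle, fell from 8.19 and 8.44 FPKM to 1.7 and 1.31 FPKM (log2 difference -2.4 ± 0.45, adjusted p = 1.8e-04). Of 32 genes of mesenchymal transition, 23 were higher and 2 lower (median 2.14). The count of higher ones was 15 without HE1 replicate 1 and that of lower ones 1 without HE1 replicate 2. Tnc, the matrix protein tenascin C, rose from 0.726 and 1.07 FPKM to 63.8 and 32.3 FPKM (log2 difference 5.53 ± 0.95, adjusted p = 7.2e-05). Cdh11, the mesenchymal cadherin, fell from 60.04 and 63.7 FPKM to 9.64 and 2.02 FPKM (log2 difference -3.77 ± 1.02, adjusted p = 0.0043). Cdh11 did not pass without HE1 replicate 2 (-2.67, adjusted p = 0.081). The summed markers of smooth muscle and mesenchyme moved with these lists, and their part in the counts was not tested.

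Of 40 collagens and laminins tested of 41, 18 were higher and 9 lower (median 0.80, and 0.47 without HE1 replicate 1). The shares were 45% and 22.5%, beside 23.5% and 29.5% of all genes tested. Col3a1, a fibrillar collagen, was listed at 0 in both Flk1+ samples and was at 19.4 and 11.6 FPKM in HE1, and Col5a2 rose from 0.489 and 0.196 FPKM to 15.4 and 15.9 FPKM (log2 difference 5.24 ± 0.86, adjusted p = 4.5e-05). Col1a1, the main collagen of connective tissue, was at 8.65 and 13.6 FPKM in Flk1+ cells and 95 and 6.08 FPKM in HE1 (log2 difference 1.15 ± 1.53, adjusted p = 0.56), with HE1 replicate 2 below both Flk1+ samples. Of 20 integrins, 11 rose and 3 fell (median 1.11). Itga1, a collagen receptor, rose from 0.906 and 0.422 FPKM to 23.9 and 32.3 FPKM (log2 difference 5.27 ± 0.34, adjusted p = 5.4e-10). Itgb5, a vitronectin receptor chain, fell from 50.7 and 52.3 FPKM to 18.5 and 8.48 FPKM (log2 difference -2.03 ± 0.45, adjusted p = 9.5e-04). Of 26 epithelial genes, 9 fell (34.6%, against 29.5% of all genes) and 4 rose (15.4%, against 23.5%). Their median was -0.67, and it was -1.65 without HE1 replicate 1 and -0.45 without Flk1+ replicate 1. Epcam, the epithelial adhesion molecule, fell from 7.94 and 6.34 FPKM to 0.115 and 0 FPKM (log2 difference -5.62 ± 0.61, adjusted p = 3.3e-07), whereas Jup, the plakoglobin that also sits in endothelial junctions, rose from 4.69 and 5.77 FPKM to 63 and 67.9 FPKM (log2 difference 3.63 ± 0.23, adjusted p = 4.4e-10). Krt8, a simple epithelium keratin, was at 171 and 177 FPKM in Flk1+ cells and 386 and 35.4 FPKM in HE1 (log2 difference -0.57 ± 1.58, adjusted p = 0.79), the HE1 samples lying on either side of the Flk1+ samples.

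Genes of cell division fell together by small amounts. Of 46 replication genes, 38 fell and 0 rose (median -0.88), and of 37 mitosis genes 34 fell and 0 rose (median -0.78). Ung, the uracil glycosylase, fell from 19.05 and 18.8 FPKM to 5.64 and 5.62 FPKM (log2 difference -1.73 ± 0.13, adjusted p = 2.3e-09). Dut, which clears dUTP, fell from 64.4 and 67.9 FPKM to 17.9 and 18 FPKM (log2 difference -1.88 ± 0.15, adjusted p = 9.2e-09). Bub1, a kinase of the spindle checkpoint, fell from 61 and 63.4 FPKM to 17.8 and 17.6 FPKM (log2 difference -1.81 ± 0.14, adjusted p = 3.4e-09). Hmmr, of the spindle, fell from 74.7 and 79.98 FPKM to 31.5 and 26.9 FPKM (log2 difference -1.4 ± 0.13, adjusted p = 6.9e-08). Replicates of a population differed little for Ung, Dut, Bub1 and Hmmr in this step. Cenpf, another mitosis gene that fell, was at 43.6 and 49 FPKM in Flk1+ cells and 22.7 and 12.7 FPKM in HE1. For Ung, Dut, Bub1 and Hmmr the levels later were between those of Flk1+ cells and HE1, with Bub1 at 27.6 and 22.4 FPKM in HE2 and 28.4 and 27.7 FPKM in progenitors. Of 16 D and E cyclins and their partners, 5 fell and 1 rose (median -0.27, and -0.43 without HE1 replicate 1), the 1 being 2 without HE1 replicate 2. The share of this list that fell, 31.25%, was near the 29.5% of all genes tested. Ccne1, the cyclin E of S phase entry, fell from 25 and 23 FPKM to 8.1 and 7.83 FPKM (log2 difference -1.58 ± 0.20, adjusted p = 2.2e-06). Ccnd3 rose from 60.5 and 61.3 FPKM to 106 and 86 FPKM (log2 difference 0.65 ± 0.15, adjusted p = 9.4e-04). Of 29 cell cycle inhibitors and p53 targets, 16 rose and 4 fell (median 0.68), the 4 being 2 without Flk1+ replicate 1. Cdkn1a, the p21 inhibitor, rose from 7.78 and 9.5 FPKM to 53.1 and 44.6 FPKM (log2 difference 2.49 ± 0.20, adjusted p = 6.3e-09). Plk2, a p53 target kinase, rose from 11 and 9.12 FPKM to 94.9 and 110.5 FPKM (log2 difference 3.34 ± 0.20, adjusted p = 2.2e-10). Cdkn2b, the p15 inhibitor, rose from 0.0978 and 0.144 FPKM to 8.34 and 1.68 FPKM (log2 difference 4.14 ± 0.75, adjusted p = 1.3e-04), from near 0 and unequally in the HE1 samples.

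Most genes of glycolysis and hypoxia fell. Of 39 tested of 40, 29 fell and 2 rose (median -1.49). Aldoc, an aldolase, fell from 12.6 and 14.5 FPKM to 0.159 and 0.0968 FPKM (log2 difference -5.91 ± 0.41, adjusted p = 1.3e-09). Bnip3, a mitophagy gene induced by hypoxia, fell from 82 and 87.2 FPKM to 4.13 and 6.04 FPKM (log2 difference -4.06 ± 0.31, adjusted p = 3.7e-09). Slc16a3, the lactate exporter MCT4, fell from 129 and 127 FPKM to 10.7 and 6.09 FPKM (log2 difference -3.97 ± 0.26, adjusted p = 5.4e-10). The 2 that rose were Hk1 and Hif1a. Hk1, a hexokinase, rose from 4.61 and 4.65 FPKM to 20.3 and 13.8 FPKM (log2 difference 1.83 ± 0.38, adjusted p = 4.8e-04). Hif1a, the oxygen-sensing factor itself, rose from 37.7 and 39.2 FPKM to 57.7 and 61 FPKM (log2 difference 0.63 ± 0.09, adjusted p = 1.5e-05). Of 91 respiratory chain genes, 21 fell and 3 rose (median -0.13, and -0.01 without HE1 replicate 1 and -0.24 without HE1 replicate 2), under the share of all genes that fell. The 21 became 13 without Flk1+ replicate 2 and 9 without HE1 replicate 1, and the 3 became 1 without Flk1+ replicate 2 or HE1 replicate 2. Ndufa8, a complex I subunit, rose from 35.9 and 36 FPKM to 91.9 and 94.6 FPKM (log2 difference 1.37 ± 0.11, adjusted p = 5.9e-09). Ndufa4l2, induced by hypoxia, was at 8.58 and 7.46 FPKM in the Flk1+ samples and at the lowest value in both HE1 samples. Of 84 ribosomal protein genes, 27 fell and 2 rose (median -0.17), and single samples decided many: the fall counted 15, 14 and 12 without Flk1+ replicate 1, Flk1+ replicate 2 and HE1 replicate 1, and the 2 were lost without any 1 of the 4 samples. The share of ribosomal protein genes that fell, 32.1%, was near the 29.5% of all genes tested. Rpl22, of the large subunit, fell from 301 and 336 FPKM to 125 and 128 FPKM (log2 difference -1.33 ± 0.17, adjusted p = 2.3e-06).

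Cholesterol genes fell in 13 of 34 and rose in 4 (median -0.34, and -0.21 without Flk1+ replicate 2), and the 4 were 1 without Flk1+ replicate 1 and 2 without HE1 replicate 1. The shares of this list were 38.2% lower and 11.8% higher, beside 29.5% and 23.5% of all genes tested. Lss, the lanosterol synthase, fell from 16.4 and 18.9 FPKM to 8.47 and 7.21 FPKM (log2 difference -1.16 ± 0.16, adjusted p = 7.2e-06). Dhcr7, the last enzyme of the pathway, fell from 16.2 and 18 FPKM to 7.58 and 6.11 FPKM (log2 difference -1.32 ± 0.16, adjusted p = 1.4e-06). Mvk, the mevalonate kinase, rose from 10.8 and 10.1 FPKM to 24.3 and 17.3 FPKM (log2 difference 0.97 ± 0.21, adjusted p = 7.2e-04).

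Immediate early genes, which respond within minutes to growth factors or to stress in cell handling, rose in 17 of 26 tested of 28 and fell in 1 (median 1.78), the 1 lost without HE1 replicate 2. Atf3, a stress factor, rose from 2.59 and 1.39 FPKM to 43.6 and 88.5 FPKM (log2 difference 4.96 ± 0.53, adjusted p = 2.9e-07). Socs3, a cytokine signalling inhibitor, rose from 1.81 and 2.02 FPKM to 15.2 and 29.2 FPKM (log2 difference 3.39 ± 0.37, adjusted p = 4.2e-07). Ptgs2, the inducible cyclooxygenase, rose from 0.0324 and 0 FPKM to 5.98 and 2.36 FPKM (log2 difference 5.07 ± 0.67, adjusted p = 4.1e-06). Isolation by column or by sorting went with the population here, and its part was not tested. Of 43 interferon and NF-kB genes tested of 45, 20 rose and 5 fell (median 0.88). Nfkbia, the NF-kB inhibitor, rose from 6.77 and 5.03 FPKM to 36.7 and 50.8 FPKM (log2 difference 2.87 ± 0.26, adjusted p = 3.5e-08). Stat3, the factor of cytokine receptors, rose from 11.9 and 10.5 FPKM to 41.9 and 55.7 FPKM (log2 difference 2.1 ± 0.24, adjusted p = 6.4e-07). Ifitm1, an antiviral membrane protein, fell from 87.2 and 64.5 FPKM to 4.32 and 3.83 FPKM (log2 difference -4.17 ± 0.31, adjusted p = 2.7e-09). Irf1, an interferon factor, fell from 22 and 26.2 FPKM to 6.32 and 6.47 FPKM (log2 difference -1.89 ± 0.28, adjusted p = 1.5e-05).

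Chromatin genes moved in part. Of 33 Polycomb genes, 20 fell and 5 rose (median -0.55), the 5 being 3 without HE1 replicate 1. Pcgf5, which belongs to a variant PRC1 complex, rose from 20.5 and 24.1 FPKM to 60.04 and 63.2 FPKM (log2 difference 1.47 ± 0.22, adjusted p = 1.3e-05), while Pcgf6 fell from 26.4 and 24.2 FPKM to 8.7 and 7.45 FPKM (log2 difference -1.64 ± 0.20, adjusted p = 1.4e-06). Cbx7, a chromobox protein of stem cells, fell from 3.9 and 4.8 FPKM to 1.26 and 1.14 FPKM (log2 difference -1.77 ± 0.21, adjusted p = 1.1e-06). Of 16 genes of DNA methylation, 6 fell and 5 rose (median -0.16, and -0.07 and -0.26 without Flk1+ replicates 1 and 2), the 5 being 3 without Flk1+ replicate 2 and 2 without HE1 replicate 2. The shares of this list were 37.5% lower and 31.25% higher, beside 29.5% and 23.5% of all genes tested. The dioxygenases parted, since Tet1 fell from 12.1 and 15.1 FPKM to 4.11 and 3.04 FPKM (log2 difference -1.9 ± 0.31, adjusted p = 4.5e-05). Tet3 rose from 4.01 and 4.55 FPKM to 16.3 and 14.2 FPKM (log2 difference 1.81 ± 0.25, adjusted p = 6.2e-06). Dnmt3b, the de novo methyltransferase, fell from 56.3 and 46.5 FPKM to 10.4 and 11.2 FPKM (log2 difference -2.24 ± 0.21, adjusted p = 5.4e-08) and was at 34.2 and 48 FPKM in HE2 and 41 and 58.8 FPKM in progenitors.

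Imprinted genes, expressed from 1 parental copy and often linked to growth, rose in 17 of 40 tested of 44 and fell in 6 (median 0.45), the 17 being 11 without Flk1+ replicate 1. The shares of imprinted genes were 42.5% higher and 15% lower, beside 23.5% and 29.5% of all genes tested. Mest rose from 61.7 and 82.6 FPKM to 1111 and 1376 FPKM (log2 difference 4.11 ± 0.27, adjusted p = 6.4e-10). Plagl1, a zinc finger factor of growth control, rose from 0.217 and 0.213 FPKM to 17.4 and 23.1 FPKM (log2 difference 6.0 ± 0.53, adjusted p = 2.7e-08). Igf2, the fetal growth factor, was among the most abundant RNAs of HE1, rising from 191 and 235 FPKM to 1976 and 1976 FPKM (log2 difference 3.22 ± 0.46, adjusted p = 9.0e-06). Its HE1 samples show the same value because quantile normalisation gives genes of equal rank one value. Phlda2, a growth restrainer of placenta, fell from 169 and 147 FPKM to 1.38 and 3.48 FPKM (log2 difference -6.1 ± 0.56, adjusted p = 4.1e-08). Of 22 Hox genes, 10 rose (45.5%, against 23.5% of all genes) and 2 fell (9.09%, against 29.5%), with a median of 0.99. Hoxb4 rose from 0.38 and 0.791 FPKM to 5.38 and 6.65 FPKM (log2 difference 3.22 ± 0.33, adjusted p = 2.1e-07). The most anterior Hoxb1 fell from 3.55 and 2.95 FPKM to 0.172 and 0.0283 FPKM (log2 difference -4.16 ± 0.38, adjusted p = 4.6e-08). Of 24 germline genes tested of 29, 3 rose (12.5%) and 4 fell (16.7%), under the shares of all genes (23.5% and 29.5%). Their median was -0.10, and 0.01 without Flk1+ replicate 1, Flk1+ replicate 2 or HE1 replicate 2. Sycp3, of the meiotic chromosome axis, fell from 14 and 19.5 FPKM to 0.00089 and 0.278 FPKM (log2 difference -6.41 ± 0.78, adjusted p = 1.5e-06). In the Sp and Klf family itself, 7 of 23 rose and 10 fell (median -0.56, and -0.33 without Flk1+ replicate 2 and -0.23 without HE1 replicate 2). The shares of this family were 30.4% higher and 43.5% lower, beside 23.5% and 29.5% of all genes. Beside Klf2 and Klf4, Klf3 rose from 5.64 and 5.94 FPKM to 27.1 and 32.2 FPKM (log2 difference 2.33 ± 0.18, adjusted p = 6.2e-09) and Klf6 rose from 40.9 and 46.1 FPKM to 140.5 and 185 FPKM (log2 difference 1.89 ± 0.30, adjusted p = 3.0e-05). Klf10 fell from 46.7 and 47.8 FPKM to 16.2 and 19.99 FPKM (log2 difference -1.39 ± 0.20, adjusted p = 9.7e-06). Klf15 fell from 7.62 and 8.1 FPKM to 0.314 and 0.904 FPKM (log2 difference -3.63 ± 0.39, adjusted p = 2.7e-07).

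The same step was measured in the mutant lines, on samples of their own. Sp3 was at 7.11 and 7.79 FPKM in Flk1+ cells and 4.5 and 4.8 FPKM in HE1 of Sp3KO, under the 25.9 FPKM of the lowest of the 4 WT samples, while Sp1, made there in truncated form, was at 27.2 and 28.9 FPKM in Flk1+ cells and 19.9 and 27.9 FPKM in HE1 of Sp1_deltaDBD. In Sp1_deltaDBD, 3042 genes were called higher (20.9%) and 3648 lower (25.1%), and in Sp3KO 3003 (20.7%) and 3388 (23.3%). Of the 3416 genes that rose in WT, 2523 (73.9%) rose in Sp1_deltaDBD and 11 fell, and 2397 (70.2%) rose in Sp3KO and 18 fell. Of the 4280 that fell in WT, 2999 (70.1%) fell in Sp1_deltaDBD and 16 rose, and 2711 (63.3%) fell in Sp3KO and 28 rose. The sign of the difference was that of WT for 96.5% and 94.5% of the genes called in WT. The time in embryoid bodies depended on the cell line, so genotype and that time cannot be told apart. A test of the difference between steps called 222 genes (1.53%) for Sp1_deltaDBD and 584 (4.02%) for Sp3KO, with 1901 and 2716 at an unadjusted p under 0.05. Both tests use the same WT samples, and their calls are not independent of each other. Leaving out Flk1+ replicate 2 of WT left 52 and 106 genes, Flk1+ replicate 1 left 99 and 285, and HE1 replicate 1 left 118 and 232.

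**Figure D5:**
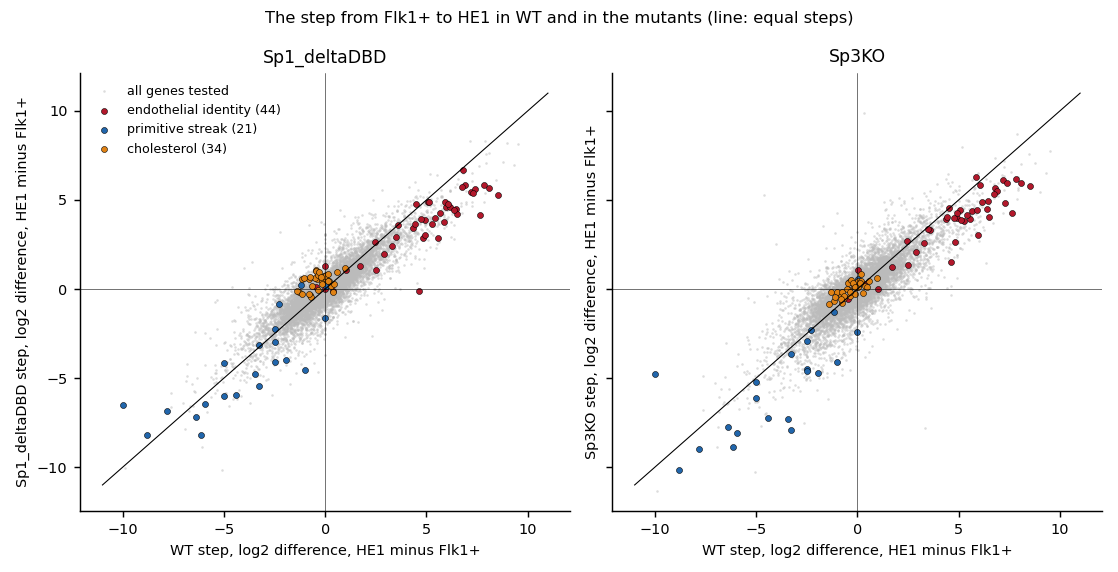
Log2 difference of the step, HE1 minus Flk1+, in Sp1_deltaDBD (left) and Sp3KO (right) against WT, grey for all 14525 genes tested and coloured for 3 gene lists, with a line where both steps are equal. Most endothelial identity genes lie below the line, with medians of 3.96 and 4.04 against 5.19 in WT, and cholesterol genes lie mostly above 0 in Sp1_deltaDBD.

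Of the 44 endothelial identity genes, the step differed from WT for 12 in Sp1_deltaDBD and 10 in Sp3KO. Their median step was 3.96 and 4.04. Over all genes tested, the step differed for 1.53% and 4.02%. The 12 and 10 were not counted again with a WT sample left out. The calls of Cd34, Cd93 and Cdh5 in both mutants were lost without at least 1 WT sample. Icam2 was at 3.25 and 3.01 FPKM in Flk1+ cells and 54.2 and 61.6 FPKM in HE1 of Sp1_deltaDBD, and at 2.47 and 2.35 FPKM and 49 and 47.2 FPKM in those of Sp3KO. Its step minus that of WT was -3.48 ± 0.38 on the log2 scale (adjusted p = 1.4e-04) in Sp1_deltaDBD and -3.38 ± 0.38 on the log2 scale (adjusted p = 1.1e-04) in Sp3KO, and both calls held without any 1 of the 4 WT samples. Notch4, a receptor of endothelium, was at 0.517 and 0.539 FPKM in Flk1+ cells and 4.39 and 2.77 FPKM in HE1 of Sp1_deltaDBD, and at 0.608 and 0.675 FPKM and 5.63 and 4.1 FPKM in those of Sp3KO. Its difference between steps was -3.0 ± 0.55 on the log2 scale (adjusted p = 0.0088) and -2.79 ± 0.55 on the log2 scale (adjusted p = 0.0091), and both held in the same way. For these genes the rise was present in all 3 genotypes and was the steepest in WT. They were named with the WT step known, and the same WT samples enter the test. The difference for the gate gene Tek was -2.07 ± 0.42 on the log2 scale (adjusted p = 0.017) in Sp1_deltaDBD. That call was lost without Flk1+ replicate 1 (-2.03), Flk1+ replicate 2 (-2.10) or HE1 replicate 2 (-1.77). Tek was at 4.14 and 8.94 FPKM in Flk1+ cells and 141 and 234 FPKM in HE1 of Sp1_deltaDBD. In WT it was at 1.22 and 1.29 FPKM and at 135 and 205 FPKM. The smaller Tek step thus came with a higher Flk1+ level and no lower HE1 level. Notch4 was higher than WT in Flk1+ cells of both mutants but lower in HE1.

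Cholesterol genes had a different balance in Sp1_deltaDBD: 20 of 34 were called higher and 1 lower (median 0.56) against 4 and 13 in WT, and the direct test called 12 of them. Over all genes, 20.9% were called higher and 25.1% lower in this line, and the direct test called 1.53%. Lss was at 17.5 and 23.2 FPKM in Flk1+ cells and 31.6 and 27.3 FPKM in HE1 in Sp1_deltaDBD, and its step minus that of WT was 1.71 ± 0.23 on the log2 scale (adjusted p = 0.0012), a call that held without any 1 of the 4 WT samples. In Sp3KO, the blood factor Myb did not follow the fall of WT. It was at 2.15 and 2.34 FPKM in Flk1+ cells and 8.38 and 5.65 FPKM in HE1, and its step minus that of WT was 3.16 ± 0.58 on the log2 scale (adjusted p = 0.0062), which held in the same way. Fgf3, which fell in WT, was at 52.7 and 58.1 FPKM in Flk1+ cells and 8.58 and 5.09 FPKM in HE1 in Sp3KO, a difference between steps of 3.43 ± 0.47 on the log2 scale (adjusted p = 9.2e-04) that also held.

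Within the WT course as a whole, the step from Flk1+ to HE1 was among the larger ones. The step from ESC to Flk1+ called 7575 genes (3985 higher and 3590 lower), that from HE1 to HE2 3181 (1703 and 1478) and that from HE2 to progenitors 1923 (793 and 1130). Each neighbour shares samples with the step described, and the counts stand side by side without a test of their difference.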

How the data were processed

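RNA of 5 populations of 3 genotypes (2 samples each) had been sequenced by the authors as stranded, ribosomal RNA depleted, paired-end libraries. According to the methods and the submitters' processing notes, reads were trimmed, aligned to mm10 with HISAT2 2.1.0 and quantified with StringTie 1.3.3, and the authors deposited 1 table of quantile normalised FPKM values for 14685 genes. The annotation is not given in the sources used here. Total counts per sample are unknown after this scaling, so no counting interval is given.

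Samples were grouped by their titles. For the 14525 genes above 1 FPKM in at least 1 of 30 samples, log2(FPKM + 0.1) was fitted with 15 group means in limma 3.58.1 (R 4.3.3) with an intensity trend, and p-values were adjusted by Benjamini and Hochberg. The fit was tested on simulated data. The members and lists were chosen with earlier results of these data known. Text names the gate genes, the 10 largest rises and falls with a mean above 3 FPKM, and up to 3 each way in the 37 lists, their defining members and members whose step differed between genotypes. The largest rises and falls were taken only from genes called with both samples of 1 population above both of the other. Some genes that this rule names are not reported here. Of 14525 symbols, 14214 matched a GENCODE M21 gene (GRCm38). Samples of the same number in Flk1+ cells and HE1 did not deviate together (r = 0.0297 over genes). Alternatives changed the pseudocount, the filter, the samples, the centring, the trend and the block. The study's own rule was a fold above 2, with no test.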

Additional observations from a re-analysis of the deposited data

Results flagged for a closer look

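Among the genes given values, the step from Flk1+ to HE1 differed between WT and a mutant for 18 genes in Sp1_deltaDBD and for 23 in Sp3KO, by limma's test of the difference between the steps over all genes. Differences are given below as the mutant step minus the WT step, on the log2 scale, and both sets use the same 4 WT samples. Many of these genes were named for a large rise or fall in those same samples, which favours a smaller step in the mutants. Others were named because their step differed by this test, so the 18 and 23 do not come from an independent set.

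In Sp1_deltaDBD, 6 of the 18 calls held without any 1 of the 4 WT samples. Among these, the difference was above 0 for Cfc1 (3.47), Aldoc (3.44), Cbx7 (2.39) and Lss (1.71) and below 0 for Icam2 (-3.48) and Notch4 (-3.0). The other 12 were lost without at least 1 WT sample, above 0 for Amer3 (1.81) and Dhcr7 (1.16) and below 0 for Cd34 (-3.28), Sox18 (-3.26), Dhrs3 (-3.16), Dll4 (-2.84), Esam (-2.71), Cd93 (-2.45), Fmo1 (-2.35), Tek (-2.07), Cdh5 (-2.03) and Pecam1 (-1.72). Leaving out Flk1+ replicate 1, Flk1+ replicate 2, HE1 replicate 1 or HE1 replicate 2 ended 6, 11, 3 and 8 of the 18 calls.

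In Sp3KO, 8 of the 23 calls held without any 1 of the 4 WT samples. Among these, the difference was above 0 for Cfc1 (5.25), Fgf3 (3.43), Myb (3.16), Amer3 (2.77) and Klf10 (1.45) and below 0 for Icam2 (-3.38), Notch4 (-2.79) and Itga1 (-2.68). The other 15 were lost without at least 1 WT sample, above 0 for Ikzf1 (3.14), Bmp5 (2.53), Aldoc (2.26), Pcgf5 (1.3), Vegfb (1.22), Dhcr7 (1.17), Ung (0.80) and Hmmr (0.72) and below 0 for Plagl1 (-3.3), Cd34 (-2.74), Sox18 (-2.72), Dhrs3 (-2.65), Thbs1 (-2.36), Cd93 (-2.17) and Cdh5 (-1.7). Leaving out Flk1+ replicate 1, Flk1+ replicate 2, HE1 replicate 1 or HE1 replicate 2 ended 10, 14, 10 and 9 of the 23 calls.

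Cfc1 was at the lowest value in both HE1 samples of WT, so the size of its difference depends on the 0.1 FPKM added before the logarithm. The same limit holds for other genes near that level in WT. Among them, Amer3 was at 0.0744 and 0.0766 FPKM and Aldoc at 0.159 and 0.0968 FPKM in HE1. In Flk1+ cells, Fmo1 was at 0.0633 and 0.0425 FPKM and Dll4 at 0.0234 and 0 FPKM.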

How the results depend on the processing

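The count of genes called in the WT step stayed between 6208 and 8387 over 14 alternatives of the limma fit, and the count past 2-fold between 3159 and 4693. Both lower ends came from the stricter filter, which tested 10374 genes instead of 14525, so they are not shares of the same genes. A fold above 2 between group means with no test gave 3259 genes (1641 higher and 1618 lower). Calls in the step that held in the same direction in Sp1_deltaDBD (5522) and in Sp3KO (5108) moved by less than 1.5 times under the alternatives added after seeing the data. The count of genes whose step differed was less stable. It was 145 instead of 222 for Sp1_deltaDBD with the 12 Flk1+ and HE1 samples alone, and 52 to 189 when 1 WT sample was left out. For Sp3KO, leaving out 1 WT sample gave 106 to 553 instead of 584.

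With the replicate number as a block, 8387 genes were called in the WT step, 433 genes differed between the steps of WT and Sp1_deltaDBD and 1210 between those of WT and Sp3KO. Samples of the same number did not deviate together between Flk1+ cells and HE1 (r = 0.0297). They did between HE1 and HE2 (r = 0.377) and between HE1 and progenitors (r = 0.310). The methods describe HE1, HE2 and progenitors as fractions sorted from day 2 blast culture. Whether samples of the same number came from the same culture is not stated, and its part in these correlations was not tested. The main fit had no term for the replicate number. Its 15 residual degrees of freedom count these fractions as independent. In the 4 samples alone the block gave 6610 genes. Of the 225 genes followed one by one, 0 reversed in direction with a call, and leaving out a sample ended the call of 12 to 16. Number of samples, 2 in each group, limits the precision, and depth cannot be read from these values.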
